A study of Mus musculus with 6 samples.

Results

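The genes of DNA replication origins and forks were followed in parental CT26.mMR1 cells and in the mutant M8. A gene was included when its symbol was on a list of 48 genes (the members) that encode origin recognition and licensing factors, the replicative helicase, the polymerases and the proteins of the moving fork. All 48 symbols were found among the 24346 gene symbols of the deposited tables, and all 48 passed the filter on low values, a mean of at least 1 FPKM (fragment counts scaled to the length of the transcript and to the number of mapped fragments) over the 6 samples. CT26 is a mouse colorectal tumor line. Both lines carried mouse MR1 by retroviral transduction, so the transgene is shared, and the sample titles of both lines carry the tag cl9. M8 came from cells treated with the mutagen N-ethyl-N-nitrosourea (ENU) at 0.3 mg/mL, cloned by limiting dilution and screened for MR1 on the cell surface, and it is 1 clone. In the paper M8 was among the mutants that raised the signal of 6C2 T cell reporter cells. It was then followed because its surface MR1 was raised. Each line was sequenced in 3 samples. The paper's supplement calls them biological replicates, but neither it nor the labels say that these were separate cultures. The p-values therefore measure only the spread between these samples.

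DNA replication starts at origins. The origin recognition complex (ORC) binds there, and with Cdc6 and Cdt1 it loads the ring of the 6 Mcm proteins onto the DNA in G1, a step called licensing that geminin, the product of Gmnn, blocks by holding Cdt1. In S phase the Dbf4-Cdc7 kinase and the firing factors turn the loaded ring into the active CMG helicase (Cdc45, Mcm2 to Mcm7 and GINS), and polymerases, the sliding clamp and its loader then copy both strands. Many of these genes are transcribed in late G1 under E2F factors, whereas the genes of mitosis peak later through CHR elements and CCAAT boxes in their promoters.

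The sequences below show where E2F or CHR letters lie near the start sites of 8 genes whose levels differed between the lines. With FPKM as deposited, each member that fell had E2F letters in at least 1 promoter window, and few of those that rose did. Under other scalings of the values, members without these letters also passed as lower, as given below. CHR letters, which most mitosis genes hold, are shown for contrast. They are from the RefSeq promoter windows of the mouse genome GRCm38.p6 (250 bases before to 50 bases after the start), which is the reference and not the sequence of CT26, and they are written in the direction of transcription. Capitals mark E2F letters (TTCCCGC or TTGGCGC, or the reverse complement GCGGGAA or GCGCCAA) or CHR letters (TTTGAA, or TTCAAA). The genes that fell are Orc3 (chr4:34614951-34615007, minus strand), Orc4 (chr2:48949376-48949432, minus strand), Cdc7 (chr5:106964310-106964346, plus strand, a CHR match and then an E2F match), Prim1 (chr10:128015189-128015217, plus strand) and Pole2 (chr12:69228166-69228205, minus strand). Of the genes that rose, Mcm5 has E2F letters at 2 places (chr8:75109320-75109391, plus strand), and Dbf4 (chr5:8422692-8422744, minus strand) and Mcm2 (chr6:88898820-88898875, minus strand) have CHR letters.
Orc3: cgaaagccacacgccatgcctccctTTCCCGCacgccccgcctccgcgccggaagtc
Orc4: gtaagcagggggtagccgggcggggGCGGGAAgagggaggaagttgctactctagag
Cdc7: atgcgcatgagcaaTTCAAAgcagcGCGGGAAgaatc
Prim1: ggcctgtcttgTTCCCGCcaattctcgtg
Pole2: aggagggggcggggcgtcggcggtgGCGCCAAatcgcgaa
Mcm5: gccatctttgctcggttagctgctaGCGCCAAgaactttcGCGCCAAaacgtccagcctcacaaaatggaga
Dbf4: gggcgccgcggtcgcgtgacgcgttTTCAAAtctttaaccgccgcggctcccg
Mcm2: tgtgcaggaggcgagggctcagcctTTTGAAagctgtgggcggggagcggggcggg

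Differences between the lines were tested with limma on log2(FPKM + 1) over all 10597 genes that passed the filter, with Benjamini-Hochberg adjustment over all of them. The threshold was the study's own, an adjusted p under 0.1 with no minimum size of change. The study applied it to read counts in the program iDEP, so its calls and those given here come from different tests. Of the 48 replication genes, 13 rose in M8 and 5 fell. These are 27.1% and 10.4% of the members, beside a background of 21.2% and 16.5% of all genes tested. In 14 members every M8 value exceeded every parental value (29.2%, against 24.8% of all genes tested), and in 6 every M8 value was below them (12.5%, against 20.4%). At an unadjusted limma p below 0.05 there were 18 members, the same ones. The median log2 fold change of the members was 0.034, and that of all genes tested was 0.0069. No member changed 1.5-fold or more, and 3 members, Orc2, Mcm5 and Dbf4, changed at least 1.2-fold. The 13 that rose comprised Orc2, Orc5, Orc6, Mcm2, Mcm3, Mcm5 and Mcm7 of origin licensing, Gins1, Mcm10, Dbf4 and Ticrr of the helicase and firing group, the clamp loader gene Rfc5 and the fork protection gene Timeless. Orc3, Orc4, Cdc7, Prim1 and Pole2 were the 5 that fell. In the GENCODE M21 annotation of GRCm38 (mm10), Orc2 lies at chr1:58462771-58505109 on the minus strand, Mcm5 at chr8:75109569-75128439 on the plus strand and Dbf4 at chr5:8396973-8422716 on the minus strand, all 3 protein-coding.

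The balance of calls depended on how the samples were scaled. Under upper-quartile scaling more members fell than rose, and over all genes this was so under TPM as well. With FPKM rescaled to TPM, 8 members rose and 7 fell (1658 and 2209 of all genes), with quantile normalization 10 rose and 8 fell (1820 and 1773), and with upper-quartile scaling 7 rose and 11 fell (1470 and 2769). The counts also moved with single libraries. Without M8 replicate 1, 6 members rose and 0 fell, which is 12.5% and 0% beside 15% and 10.8% of all genes. Without M8 replicate 2 the counts were 7 and 2 (14.6% and 4.17%, beside 16.1% and 11.8%), and without parental replicate 2 they were 8 and 3 (16.7% and 6.25%, beside 18% and 12.6%). In these 3 fits, and without parental replicate 1 (18.8% beside 19.8%), the share of members that rose was below that of all genes, the reverse of the comparison with all 6 samples. The same held at an adjusted p below 0.05 (14.6% of members and 16.4% of all genes higher) and with a fold change of at least 1.2 (6.25% and 7.59%). The fits without parental replicate 1, parental replicate 3 or M8 replicate 3 gave 9 or 10 that rose and 2 or 3 that fell. Orc2, Mcm5 and Dbf4 kept their call in all 18 alternative settings, and Mcm2, Mcm3 and Rfc5 also kept theirs with any 1 sample left out. None of the 18 called members changed sign in any of these settings.

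**Figure D1:**
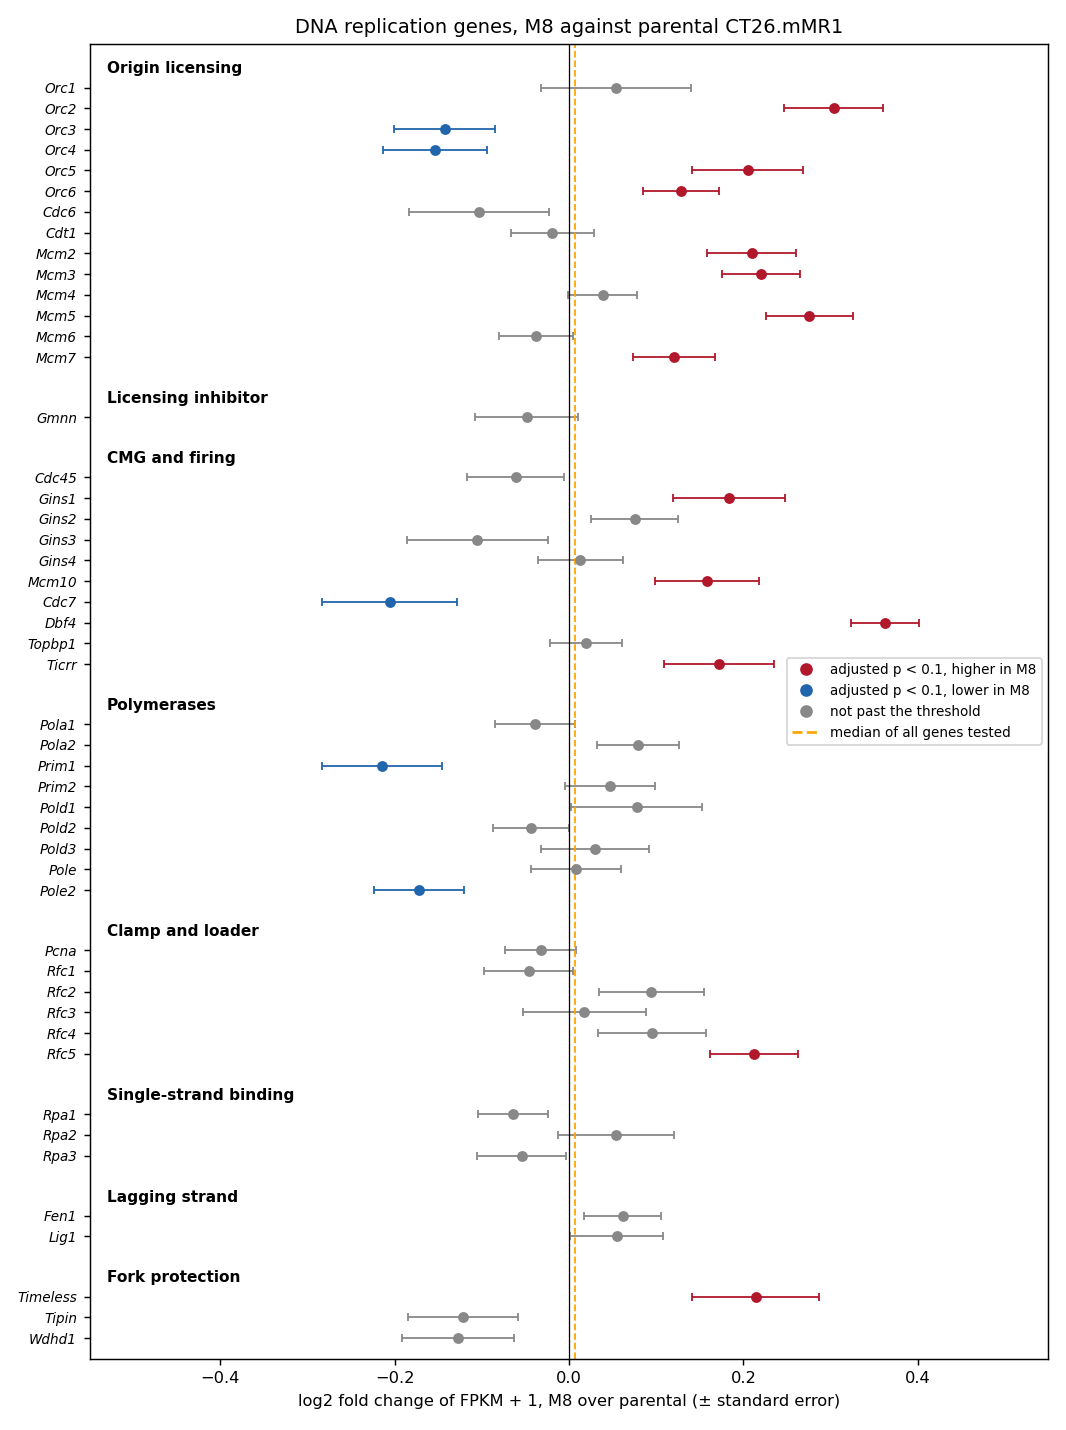
Log2 fold change of FPKM + 1 in M8 over parental cells for each of the 48 members, with standard errors (SE), grouped by role; red marks the 13 members that rose, blue the 5 that fell, and the dashed line the median of all genes tested (0.0069). The colored points to the right of 0 lie mostly in origin licensing and in CMG and firing, and no member reaches 0.4.

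The samples held an estimated 23.9 to 27.0 M mapped reads (M for mega) in parental cells and 19.4 to 22.0 M in M8, so the M8 libraries were the shallower ones. This estimate comes from the smallest steps between FPKM values of low genes. The median coefficient of variation of the members was 4.74% in parental cells and 3.50% in M8. The labels give colon as the tissue. Of 10 colon epithelium markers only Krt18, Krt20 and Lgals4 reached a mean of 1 FPKM, and Epcam, Cdh1, Krt19 and Cdx2 were listed at 0 in all 6 samples. Krt20 and Lgals4 were lower in M8 (log2 fold changes -0.50 and -0.66, limma adjusted p = 0.00438 and 0.00728), while Krt18 had a log2 fold change of 0.18 and did not pass (limma adjusted p = 0.321). Of 3 mesenchymal markers, Fn1 fell from 622 ± 22.5 to 488 ± 17.3 FPKM (SD, n = 3 each; log2 fold change -0.35, limma adjusted p = 0.000917), while Vim (1921 ± 197 against 2015 ± 43.9 FPKM) and Zeb1 (11.3 ± 0.559 against 10.3 ± 0.586 FPKM) did not pass. The part of these differences in the members' values was not tested. None of the 6 leukocyte markers and none of the 3 endothelial markers reached 1 FPKM. The transgene Mr1 had a log2 fold change of -0.035 (limma adjusted p = 0.615).

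The ORC is built of 6 subunits, and in M8 their mRNAs moved in both directions: 3 rose (50%, beside 21.2% of all genes), 2 fell (33.3%, beside 16.5%) and 1 did not pass the test. With quantile normalization 2 rose and 0 fell. Orc2, a core subunit, had 25.9, 22.4 and 25.2 FPKM in the parental replicates and 30, 30.6 and 30.8 FPKM in M8. The M8 values lay close together and above every parental value, a rise of 24.1% (log2 fold change 0.30, standard error (SE) 0.057, limma adjusted p = 0.00489). Orc5, which binds ATP within the complex, had 11.9, 13.1 and 12.3 FPKM in parental cells and 15.7, 13.7 and 14.0 FPKM in M8. Its groups did not overlap either, and the log2 fold change was 0.20 (SE 0.063, limma adjusted p = 0.0387). M8 replicate 1 was its highest sample, and without it the call was lost. Orc6, the subunit least tightly bound to the others, had 37.5, 39.2 and 40.6 FPKM in parental cells and 43.6, 42.1 and 42.6 FPKM in M8 (log2 fold change 0.13, limma adjusted p = 0.0553). Of the 4 scalings, only median centring kept that call, and of the 6 leave-one-out fits only that without parental replicate 3.

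Orc3 and Orc4 fell. Orc3, the partner of Orc2 in the core, had 8.62, 8.58 and 7.99 FPKM in the parental replicates and 7.44, 7.32 and 7.77 FPKM in M8, so that all M8 values lay below the parental ones (log2 fold change -0.14, SE 0.058, limma adjusted p = 0.0952). Orc4, an ATPase subunit, had 14.3, 14.0 and 13.8 FPKM against 12.3, 11.7 and 13.6 FPKM. M8 replicate 3 lay just under the lowest parental value, and the log2 fold change was -0.15 (SE 0.060, limma adjusted p = 0.0815). Both calls were lost with quantile normalization (limma adjusted p = 0.143 and 0.102) and in 5 of the 6 leave-one-out fits. Of these fits, Orc3 passed only without parental replicate 3 and Orc4 only without M8 replicate 3. Orc1, the ATPase that is degraded after G1 in mammals, was the lowest of the 6 genes, with 2.27, 2.50 and 2.31 FPKM in parental cells and 2.46, 2.71 and 2.31 FPKM in M8. These values overlapped (log2 fold change 0.054, limma adjusted p = 0.674).

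Between the subunits the levels differed far more than between the lines. The mean over the 6 samples was 40.9 FPKM for Orc6, 27.5 for Orc2, 13.5 for Orc5, 13.3 for Orc4, 7.95 for Orc3 and 2.43 for Orc1. Neighbours in this order had ranges that did not overlap, except Orc5 and Orc4. Orc5 was the higher of that pair in 3 samples, which were the 3 of M8.

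**Figure D2:**
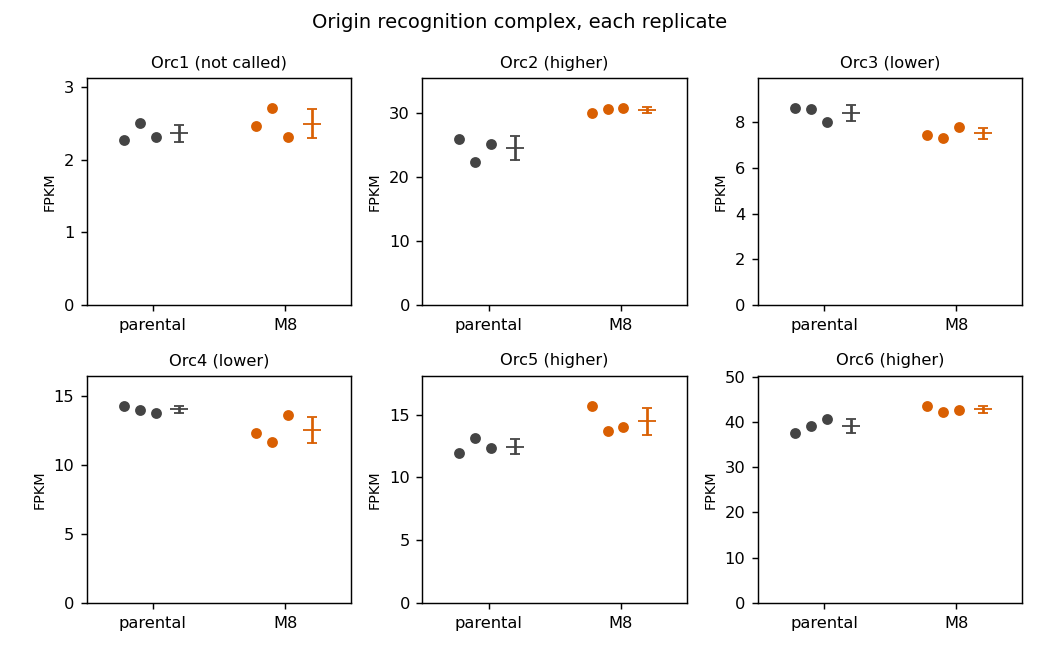
FPKM of the 6 ORC subunit genes in each replicate of parental cells (grey) and M8 (orange), with mean and SD beside the points and every vertical axis starting at 0. Orc2, Orc5 and Orc6 lie higher in every M8 replicate, Orc3 and Orc4 lie lower, and Orc1 overlaps.

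The licensing factors themselves gave no call. Cdc6, the ATPase that joins ORC to recruit the helicase, had 5.82 to 6.70 FPKM in parental cells and 5.15 to 6.25 FPKM in M8 (log2 fold change -0.10, limma adjusted p = 0.361). Cdt1, which escorts the Mcm ring, had 52.8 to 58.2 and 54.7 to 56.7 FPKM (log2 fold change -0.019, limma adjusted p = 0.790). Gmnn, its inhibitor, had 41.2 to 48 and 40.9 to 43.5 FPKM (log2 fold change -0.049, limma adjusted p = 0.564). The ratio of Cdt1 to Gmnn within a sample does not depend on the scaling of the library, apart from the added 1. In FPKM it ran from 1.2 to 1.41 in parental cells and from 1.26 to 1.38 in M8. The log2 ratios differed by 0.030, which was within the spread of the replicates (exact two-sided permutation test, p = 0.7, where 3 samples against 3 cannot give less than 0.1).

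Of the 6 genes of the Mcm ring 4 rose (66.7%, beside 21.2% of all genes) and 0 fell, with a median log2 fold change of 0.16. In 5 of them every M8 value lay above every parental value (83.3%, beside 24.8%). With quantile normalization 2 rose and 1 fell. Mcm5 rose most, from 51.0, 53.1 and 47.4 FPKM to 63.2, 61.4 and 59.3 FPKM, which is 21.4% (log2 fold change 0.28, SE 0.050, limma adjusted p = 0.00414). Mcm5 and Mcm2 form the gate through which the ring opens around DNA. Mcm2, which also carries histones at the fork, had 90.8, 102 and 94.1 FPKM in parental cells and 116, 106 and 110 FPKM in M8 (log2 fold change 0.21, SE 0.052, limma adjusted p = 0.0157). Its call was lost with quantile normalization. Mcm3, the neighbour of Mcm5 in the ring, had 58.8, 64.5 and 64.0 FPKM against 73.0, 73.2 and 72.3 FPKM in M8 (log2 fold change 0.22, SE 0.045, limma adjusted p = 0.00699). The M8 replicates of Mcm3 differed from each other by less than those of the parental cells did.

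Mcm7 had the smallest rise, from 108, 121 and 113 FPKM to 125, 124 and 123 FPKM (log2 fold change 0.12, SE 0.046, limma adjusted p = 0.0811). Its call was lost with TPM, quantile normalization and upper-quartile scaling, and among the leave-one-out fits it was kept only without parental replicate 2. Mcm4 and Mcm6, which with Mcm7 form the part of the ring that has helicase activity on its own, did not pass the test. Mcm4 had 35.4, 35.6 and 35.2 FPKM in parental cells and 36.9, 35.7 and 36.5 FPKM in M8, separate groups with a log2 fold change of only 0.038 (limma adjusted p = 0.491). Mcm6 had 68.6 to 73.2 and 67.2 to 70.8 FPKM, which overlapped (log2 fold change -0.038, limma adjusted p = 0.526). Mcm6 passed as lower under quantile normalization and under upper-quartile scaling. Over the 6 samples the mean levels were 119 FPKM for Mcm7, 103 for Mcm2, 69.8 for Mcm6, 67.6 for Mcm3, 55.9 for Mcm5 and 35.9 for Mcm4. Each gene lay above the next in all 6 samples except Mcm6, which lay above Mcm3 in 3.

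Loaded helicases wait for the Dbf4-Cdc7 kinase, and the genes of its subunits moved in opposite directions. Dbf4, the regulatory subunit, had 59.8, 58.2 and 58.5 FPKM in parental cells and 78.2, 74.7 and 75.0 FPKM in M8. This rise of 29.1% was the largest among the members (log2 fold change 0.36, SE 0.039, limma adjusted p = 0.000445), and the gap between the groups was wider than the spread within either. Cdc7, the catalytic subunit, had 8.0, 7.68 and 9.32 FPKM in parental cells and 6.81, 7.55 and 6.87 FPKM in M8. All M8 values lay below the parental ones, but M8 replicate 2 came close to parental replicate 2, and the log2 fold change was -0.21 (SE 0.077, limma adjusted p = 0.0743). The call of Cdc7 was lost without parental replicate 3, M8 replicate 1 or M8 replicate 3 and with quantile normalization. The ratio of Dbf4 to Cdc7, a pair chosen after the values were seen and therefore not tested, was 6.28 to 7.58 in parental cells and 9.89 to 11.5 in M8.

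**Figure D3:**
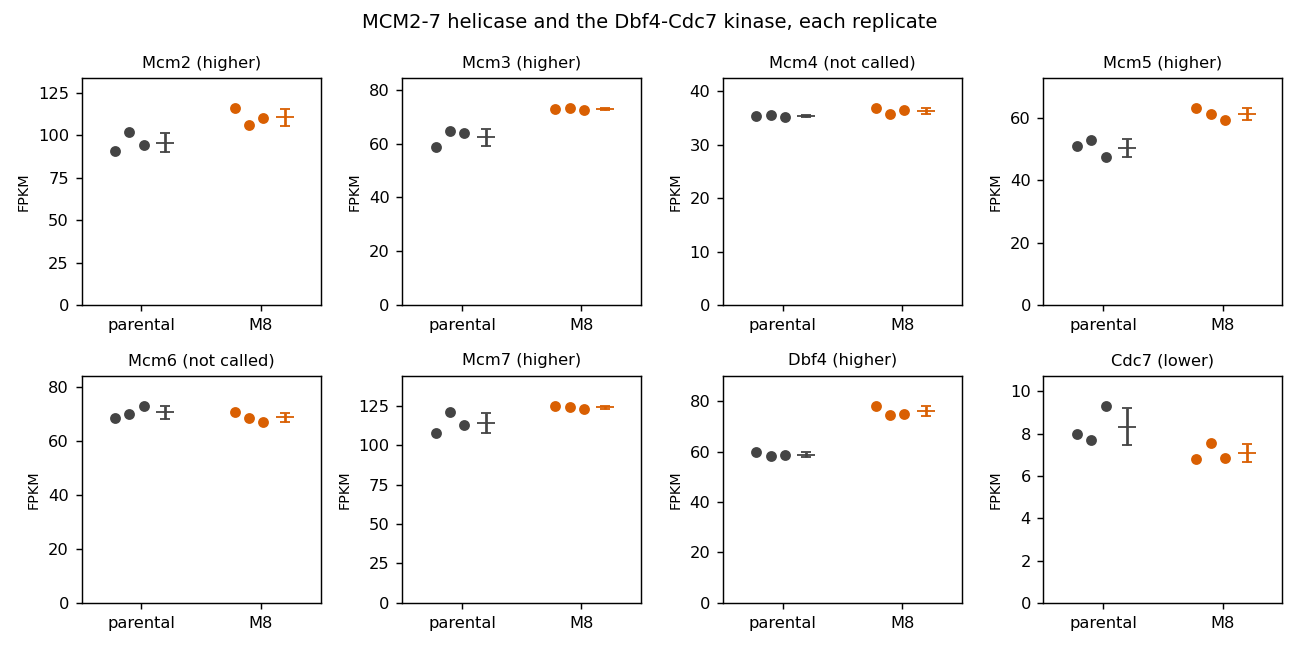
FPKM of the 6 Mcm ring genes and of the kinase genes Dbf4 and Cdc7 in each replicate of parental cells (grey) and M8 (orange), with mean and SD beside the points and every vertical axis starting at 0. The widest gap between the lines is that of Dbf4 (58.2 to 59.8 against 74.7 to 78.2 FPKM), Mcm6 overlaps, and Cdc7 lies lower in M8.

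Of the other firing factors, Mcm10 and Ticrr rose and Topbp1 gave no call. Mcm10, which is needed to activate the assembled helicase, had 15.6, 15.1 and 14.2 FPKM in parental cells and 16.6, 17.9 and 15.9 FPKM in M8 (log2 fold change 0.16, limma adjusted p = 0.0740). Ticrr, also called treslin, helps to bring Cdc45 to origins and had 4.67, 4.76 and 4.52 FPKM against 5.39, 5.20 and 5.51 FPKM in M8 (log2 fold change 0.17, limma adjusted p = 0.0700). Neither gene's groups overlapped, and both calls were lost with TPM and upper-quartile scaling. Ticrr lost its call in all 6 leave-one-out fits, whereas Mcm10 kept it without parental replicate 1 and without M8 replicate 3. Topbp1, the scaffold that Ticrr binds, had 27.2 to 27.4 FPKM in parental cells and 27.0 to 28.1 FPKM in M8 (log2 fold change 0.019).

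Among Cdc45 and the 4 GINS subunits, which complete the CMG helicase, only Gins1 was called. It had 15.2, 13.4 and 15.9 FPKM in parental cells and 17.5, 16.5 and 16.9 FPKM in M8 (log2 fold change 0.18, SE 0.064, limma adjusted p = 0.0599). Parental replicate 2 was its lowest sample, and the call was lost without it, as it was without any 1 of the M8 replicates and with TPM or upper-quartile scaling. The other subunits had log2 fold changes of 0.075 (Gins2), 0.013 (Gins4), -0.061 (Cdc45) and -0.11 (Gins3), with limma adjusted p-values from 0.290 to 0.865. The GINS complex holds its subunits in equal number, while the mRNA means over the 6 samples ran from 8.51 FPKM for Gins3 to 41.5 FPKM for Gins2.

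None of the 9 polymerase genes among the members rose. Of these, 2 fell (22.2%, beside 16.5% of all genes, and 0 without M8 replicate 1) and 7 gave no call, and the median log2 fold change was 0.0082. Prim1, the catalytic subunit of primase that makes the RNA primers, had 34.3, 35.9 and 41.2 FPKM in parental cells and 30.3, 33.6 and 31.6 FPKM in M8 (log2 fold change -0.21, SE 0.069, limma adjusted p = 0.0443). The groups did not overlap, but parental replicate 3 was the highest sample, and without it the call was lost, as it was without M8 replicate 1 or 3. Its partner subunits Prim2, Pola1 and Pola2 had log2 fold changes of 0.047, -0.039 and 0.079, and none passed. Pole2, the second subunit of the leading-strand polymerase epsilon, had 17.4, 18.5 and 17.5 FPKM in parental cells and 15.2, 15.3 and 16.5 FPKM in M8 (log2 fold change -0.17, SE 0.052, limma adjusted p = 0.0344). It passed under all 4 scalings but not without parental replicate 2, M8 replicate 1 or M8 replicate 2. The catalytic subunit Pole had a log2 fold change of 0.0082 (limma adjusted p = 0.921), with 15.2 to 15.7 FPKM in parental cells and 14.7 to 16.1 FPKM in M8. The subunits of the lagging-strand polymerase delta, Pold1, Pold2 and Pold3, had log2 fold changes of 0.078, -0.043 and 0.030. Pold2 passed as lower with quantile normalization and upper-quartile scaling.

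At the primer end, the clamp loader (replication factor C) places the ring-shaped clamp PCNA on the DNA. Pcna was the most abundant mRNA of all members, with 231, 243 and 235 FPKM in parental cells and 240, 226 and 227 FPKM in M8, and its groups overlapped (log2 fold change -0.032, limma adjusted p = 0.580). It passed as lower with quantile normalization (-0.12) and upper-quartile scaling (-0.094). Of the 5 loader subunits only Rfc5 was called. It had 32.3, 31.3 and 30 FPKM in parental cells and 38.3, 36.0 and 34.6 FPKM in M8, a rise of 16.4% with no overlap (log2 fold change 0.21, SE 0.051, limma adjusted p = 0.0139). Rfc1, the large subunit, had a log2 fold change of -0.046, and Rfc2, Rfc3 and Rfc4 had 0.094, 0.018 and 0.095, with overlapping groups. The genes of replication protein A, which coats single-stranded DNA, gave no call, with log2 fold changes of -0.064 (Rpa1), 0.054 (Rpa2) and -0.054 (Rpa3). With TPM, quantile normalization and upper-quartile scaling Rpa1 passed as lower, and with quantile normalization Rpa3 did. Fen1 and Lig1, which trim and seal the fragments of the lagging strand, had log2 fold changes of 0.061 and 0.055 and did not pass under any setting.

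The fork protection genes split. Timeless, which links the helicase to the polymerases, had 8.96, 8.85 and 9.35 FPKM in parental cells and 11.9, 10.5 and 9.66 FPKM in M8. M8 replicate 3 lay just above the parental range and M8 replicate 1 was the highest sample, and the log2 fold change was 0.21 (SE 0.073, limma adjusted p = 0.0549). The call was lost with upper-quartile scaling, without parental replicate 1 or 2 and without M8 replicate 1 or 2. Tipin, the binding partner of Timeless, had 58.0 to 66.8 FPKM in parental cells and 53.2 to 60.9 FPKM in M8 (log2 fold change -0.12, limma adjusted p = 0.177), and it passed as lower with TPM, quantile normalization and upper-quartile scaling and without parental replicate 2. Wdhd1, also called And-1, tethers polymerase alpha to the helicase. It had 9.90, 9.36 and 9.19 FPKM against 8.91, 8.99 and 7.91 FPKM, separate groups that did not pass (log2 fold change -0.13, limma adjusted p = 0.164), except as lower with upper-quartile scaling (-0.18).

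By role, most calls of higher genes were in origin licensing and in CMG and firing. In origin licensing 7 of 14 genes rose (50%) and 2 fell (14.3%), with a median log2 fold change of 0.087, and in CMG and firing 4 of 10 rose (40%) and 1 fell (10%), with a median of 0.047, beside 21.2% and 16.5% of all genes. The Mcm ring genes are counted in origin licensing, so CMG and firing holds only Cdc45, GINS and the firing factors. Of the 5 Cdc45 and GINS genes 1 rose (20%) and 0 fell, with a median of 0.013. Of the 5 firing factors 3 rose (60%) and 1 fell (20%), with a median of 0.16. In CMG and firing Dbf4 was the 1 gene of 10 (10%) that still rose with TPM, with upper-quartile scaling or at an adjusted p below 0.05, where 15.6%, 13.9% and 16.4% of all genes did, and also without parental replicate 2, M8 replicate 1 or M8 replicate 2. In origin licensing 5 of 14 rose (35.7%) with TPM, with upper-quartile scaling and at that p, and 4 (28.6%) with quantile normalization and without M8 replicate 1. Among the polymerases 0 of 9 rose and 2 fell (median 0.0082), in the clamp and its loader 1 of 6 rose and 0 fell (median 0.056), and in the lagging strand pair neither gene passed (median 0.058). The groups were described and not tested against each other, and most of their medians moved with the scaling. With upper-quartile scaling the median was 0.035 for origin licensing and below 0 for each of the other 4 groups named here.

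**Figure D4:**
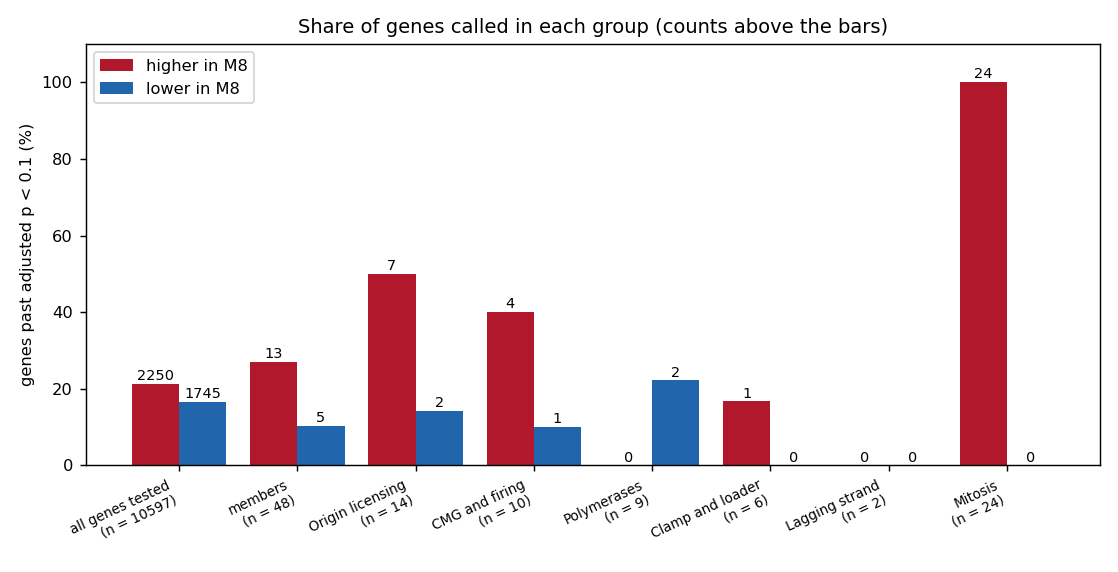
Share of genes past the adjusted p of 0.1 in percent, higher (red) and lower (blue) in M8, for all genes tested, all members, 5 of the role groups and the 24 mitosis genes, with counts above the bars. Origin licensing (7 of 14) and CMG and firing (4 of 10) stand above the background of 21.2% higher with FPKM as deposited. The Mcm ring genes are counted in origin licensing, and CMG and firing has 1 of 10 with TPM or upper-quartile scaling. The polymerases have 0 higher genes. All 24 mitosis genes, a list chosen with earlier results of these data known, are higher.

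Related genes outside the member list were taken from further lists. Of 23 other genes of the replisome 6 rose (26.1%) and 3 fell (13.0%), shares near those of all genes (21.2% and 16.5%), with a median log2 fold change of 0.056. The largest changes there were those of Pold4, the small subunit of polymerase delta (39.4 ± 3.83 against 28.4 ± 0.236 FPKM, SD, n = 3 each; log2 fold change -0.46, limma adjusted p = 0.00157), of Mtbp, a partner of Ticrr (0.36, limma adjusted p = 0.00309), and of the ribonuclease H2 subunit Rnaseh2c (-0.33, limma adjusted p = 0.0160). Pole3, a histone-fold subunit of polymerase epsilon, rose by 0.27 (limma adjusted p = 0.0190) and is named here because of its value, since Pole2 of the same polymerase fell. Of the 7 tested genes that control the breakdown of Cdt1 and geminin 3 rose (42.9%), namely Fbxo5 (0.28), Skp2 (0.24) and Ddb1 (0.24), and 1 fell (14.3%), Dtl, named after its value was seen (-0.17, limma adjusted p = 0.0507). Fbxo5 encodes Emi1, an inhibitor of the ubiquitin ligase APC/C, while Dtl is the adaptor that brings Cdt1 to the Cul4 ligase.

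In the list for entry into S phase 6 of 14 genes rose (42.9%, beside 21.2% of all genes) and 3 fell (21.4%, near the 16.5% of all genes). Ccna2, the cyclin of S phase and G2, rose from 57.0 ± 1.39 to 81.9 ± 1.87 FPKM (SD, n = 3 each; log2 fold change 0.51, limma adjusted p = 0.000163). Ccne2, a cyclin of the start of S phase, fell (log2 fold change -0.44, limma adjusted p = 0.00163), and so did Rb1, which restrains E2F factors (-0.41, limma adjusted p = 0.00187). Of 8 genes of chromatin assembly behind the fork 4 rose (50%) and 0 fell, led by the histone chaperone Asf1b (0.28), Ssrp1 of the FACT complex (0.17) and Uhrf1 (0.13), which recruits the maintenance methyltransferase. Of 9 checkpoint genes 0 rose and 1 fell (11.1%), Rad1 of the checkpoint clamp (-0.16, limma adjusted p = 0.0936). By comparison all 24 genes of a mitosis list rose, each by at least 0.18 on the log2 scale, led by Plk1 (0.73), Cdc20 (0.66) and Aurka (0.66). The largest member difference (0.36) was below the median of the mitosis list, 0.43. That list was chosen with earlier results of these data known, so its share is not an independent measure. In a bulk sample a change in the share of cells in a phase and a change of mRNA per cell cannot be told apart.

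The promoter windows were searched on both strands for the letters given above with the sequences and for CCAAT. A gene with several start sites has several windows and counts as holding the letters when any of them does. At least 1 window was given for 39 of the 48 members, all but Mcm4, Gmnn, Gins1, Gins2, Gins4, Prim2, Pole, Rfc2 and Tipin. E2F letters were present for 23 of the 39 (59.0%) and for 1233 of the 8167 tested genes with a window (15.1%). All 5 members that fell had them, as the printed stretches of Orc3, Orc4, Cdc7, Prim1 and Pole2 show, and 15 of 22 members without a call had them (68.2%), but of the 12 members that rose only Mcm3, Mcm5 and Mcm7 did (25%). These are the calls with FPKM as deposited. With quantile normalization the calls of Orc3, Orc4 and Cdc7 were lost. Mcm6 and Rpa3, with E2F letters, and Pcna, Pold2 and Rpa1, without them, then passed as lower. With upper-quartile scaling the 5 kept their calls, and Mcm6 and Wdhd1, with the letters, and Pcna, Pold2 and Rpa1, without them, joined. Tipin, which has no window, passed as lower under both. Seen from the letters, the 23 members with an E2F match had a median log2 fold change of -0.038, with 3 higher and 5 lower, and the 16 without had 0.14, with 9 higher and 0 lower. Among all tested genes the same division made little difference, with 22.4% higher and 14.3% lower for genes with a match and 21.3% and 16.7% for those without. These shares are descriptions of a comparison made with the values known. Only TTCCCGC and TTGGCGC were searched, so the absence of these letters does not show that a gene lacks an E2F site.

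CHR letters were found for 7 of the 39 members with a window (17.9%, against 13.9% of all tested genes) and CCAAT for 22 (56.4%, against 43.7%). Dbf4 and Mcm2 were the members that rose with a CHR match, and Cdc7 fell with both a CHR and an E2F match. By call, CHR letters were in 2 of 12 members that rose (16.7%), 1 of 5 that fell (20%) and 4 of 22 without a call (18.2%). Of the 21 mitosis genes with a window 16 had CHR letters (76.2%) and 3 had E2F letters (14.3%), where the members had E2F letters more often than CHR letters. CCAAT was found for 20 of the 21 (95.2%). A match describes letters within 300 bases and not a bound factor.

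**Figure D5:**
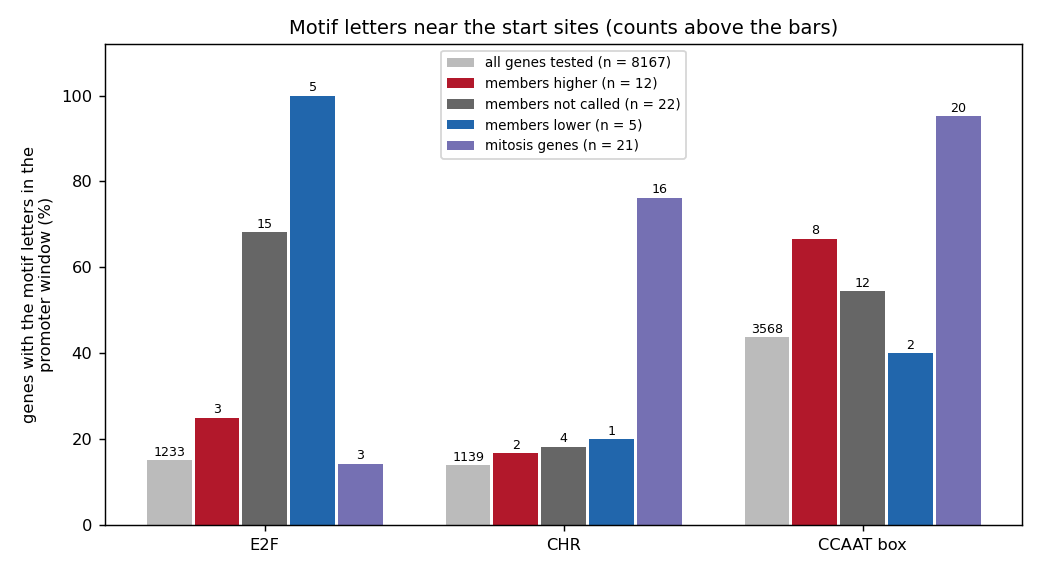
Share of genes in percent with a 300-base promoter window that holds E2F, CHR or CCAAT letters on either strand, for all tested genes, for members by their call in M8 and for the mitosis genes, with counts above the bars. For calls made on FPKM as deposited, E2F letters are in 5 of 5 members that fell and 3 of 12 that rose. Pcna, Pold2 and Rpa1, whose windows lack E2F letters, also passed as lower once values were upper-quartile scaled or quantile normalized. The mitosis genes have mostly CHR and CCAAT letters.

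Some values could hold reads of other genes. In the GENCODE M21 annotation exons of Mcm7 overlap those of Ap4m1 and Cops6 on the other strand and hold Mir25 and Mir93, and exons of Orc2 (Nif3l1), Orc4 (Acvr2a and Mbd5), Orc6 (Vps35), Rfc5 (Wsb2), Ticrr (Kif7) and Timeless (Gm26847) also overlap a gene on the other strand. Orc5 shares its strand with the pseudogene Gm15421, and Pole2 with Gm49384. The libraries were stranded, but the sources do not say whether strand was used in counting, which makes these values less certain. Processed copies named after Pcna and Topbp1 exist as well.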

How the data were processed

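Gene expression was measured by RNA sequencing of stranded mRNA libraries in 101-base single-read mode, in 3 parental and 3 M8 samples. Reads were mapped to mm10 by the authors using TopHat, and FPKM values per gene symbol, calculated with Cufflinks, were deposited by the authors. The submitters' processing notes name TopHat2 2.1.1, Bowtie2 2.2.8, SAMtools 0.1.18 and Cuffdiff 2.2.1. The paper's methods give another version of TopHat, and the gene annotation is not given in the sources used here. FPKM values are not counts, so no count model was used. Values were analysed as log2(FPKM + 1) with limma 3.58.1 (lmFit, eBayes with a trend) in R 4.3.3 where the mean FPKM was 1 or more. Fold changes on this scale understate changes of low genes. Mapped reads were estimated from FPKM steps of low genes with 1 transcript, with 200 bases taken off the transcript length. All 48 members are named. Values per sample are given for called members and for complexes that were compared, and from each other list up to 3 called genes with the largest change are named, besides markers, and others are marked as named for their values. The members, lists and motifs were chosen with earlier results of these data known. The alternatives changed the pseudocount (0.1 or 0.5), the filter (none, or 5 FPKM), the scaling (median centring, TPM, quantile normalization or upper-quartile scaling), the eBayes trend, the threshold (adjusted p of 0.05, or a 1.2-fold change besides), added a replicate block, or left out 1 sample at a time. The fit was tested on simulated data. Python 3.11.15 with scipy 1.17.1, pandas 2.3.3 and matplotlib 3.10.9 served for tables and figures. Promoter windows are from RefSeq (GRCm38.p6) and overlaps from GENCODE M21, matched by symbol. Of the windows of the members, the bases after the start lay in an annotated transcript as written in 42 of 48, counting all windows given for the 39 members, and in 0 as the reverse complement.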

Additional observations from a re-analysis of the deposited data

How the results depend on the processing

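The count of members that rose (13) was 8 without a filter on low values, 8 with TPM, 7 with upper-quartile scaling, 7 at an adjusted p below 0.05, 3 with a fold change of at least 1.2, and 6 to 10 with each sample left out. The count that fell (5) was 1, 8 (quantile normalization), 11 (upper-quartile scaling), 2 (adjusted p below 0.05) and 0 (fold change of at least 1.2), the 1 being without a filter, and 0 to 3 with each sample left out. The cause of these shifts was not tested. The median log2 fold change of the members was -0.0011 with TPM, -0.0067 after quantile normalization, -0.024 after upper-quartile scaling and 0.0096 to 0.047 with each sample left out. For origin licensing it was 0.12 with a mean of at least 5 FPKM, 0.042 after quantile normalization and 0.035 after upper-quartile scaling. In the last 2 settings it was -0.010 and -0.013 for CMG and firing and -0.0041 and -0.0021 for the lagging strand. For the polymerases it was -0.027 with TPM, -0.050 with upper-quartile scaling and -0.017 to 0.016 with each sample left out. For the clamp and loader it was 0.020 with TPM, -0.019 with quantile normalization, -0.0046 with upper-quartile scaling and -0.011 to 0.11 with each sample left out. The log2 ratio of Cdt1 to Gmnn differed by -0.017 without parental replicate 3 and by -0.011 without M8 replicate 1, within a range of -0.017 to 0.099.

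With a replicate block 12 members rose and 4 fell, Orc3 and Ticrr being lost. Deviations of samples with the same number correlated at r = 0.10, -0.11 and -0.033, and those with unlike numbers from -0.13 to 0.18. These values give no sign that the numbers pair the samples, but they cannot exclude shared handling. FPKM gives no counting error, and at this depth with 3 samples a line no member with a log2 fold change between -0.1 and 0.1 passed without rescaling. With upper-quartile scaling Mcm6 (-0.099) and Pcna (-0.094) did. M8 is 1 clone, so clone and mutagen cannot be told apart. Not one member differed by as much as 1.5-fold, and 30 of 48 gave no call, which does not show that they were equal.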
